A study of Oryza sativa with 10 samples.

Results

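Some transcripts are made at a high level in every tissue of the rice plant, and these were taken here as the probe sets that read high and steady on all arrays of the study. A probe set is a group of short oligonucleotides on the array designed to read a transcript, or in some cases several alike transcripts. Members were all non-control probe sets with a deposited signal of at least 2000 on each of the 10 arrays and a highest-to-lowest signal ratio over those arrays of at most 2. The rule found 226 of the 57258 non-control probe sets (0.395%), under its limit of 300. Of these, 210 were annotated to 1 gene, 1 to several and 15 to none, and the 210 covered 206 genes. A gene name beyond an identifier was at hand for 40 genes, read by 43 probe sets, and the other 183 probe sets are counted below without a function.

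The study measured rice (Oryza sativa, japonica cultivar Zhonghua 11, grown in a phytotron) on an Affymetrix array of short oligonucleotides. The groups were embryo and endosperm dissected from seeds at 6 days after anthesis, leaf and root from seedlings 7 days old, and whole seedlings 10 days old, with no treatment or mutation in any. There were 2 biological replicates of every tissue, an array for each, and so small a number limits how precise any value is. A whole seedling holds leaf and root, and a dissected tissue is a mixture of cell types, so fewer cells of a type and less RNA per cell cannot be told apart. All 18 tissue marker genes examined read highest, by the mean of 2 arrays, in their own tissue among embryo, endosperm, leaf and root. The factors ran from 1.08 (ROC1 in embryo, against leaf) to 131 (Lsi2 in root), although CAB2R, a leaf marker, had its highest single array in endosperm 2. The endosperm markers also read high in embryo, with means from 1762 (ALK) to 10747 (GLUA-1), against at most 25.8 in leaf and root. The source of that embryo signal was not tested. NF-YB1, also planned as an endosperm marker, was not among the 18.

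Genes that every living cell needs are often called housekeeping genes: they encode the cytoskeleton, protein synthesis and turnover, energy metabolism, vesicle traffic and the basic signalling kinases and phosphatases. Some of them serve as internal references when the level of another transcript is measured, on the assumption that their own level does not move. Actin, ubiquitin, elongation factor, tubulin and glyceraldehyde-3-phosphate dehydrogenase (GAPDH) genes are the usual choices in rice.

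The members were chosen from all 10 arrays by the values described here, so levels and ratios below are descriptions with no test. Only 1905 probe sets read at least 2000 on all arrays, and the members were 11.9% of them. The other 1679 had ratios from just over 2 to 23.5, with a median of 3.20. Among members the ratio ran from 1.25 to just under 2 with a median of 1.80, and it was at most 1.5 in 17. The mean signal of a member over the arrays ran from 2462 to 25968 with a median of 4615, against a median of 6582 in the other high probe sets; 32 members had a mean of at least 10000 and 5 of at least 20000. Their coefficient of variation over the 10 arrays ran from 8.14% to 27.7%, with a median of 19.4%.

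**Figure D1:**
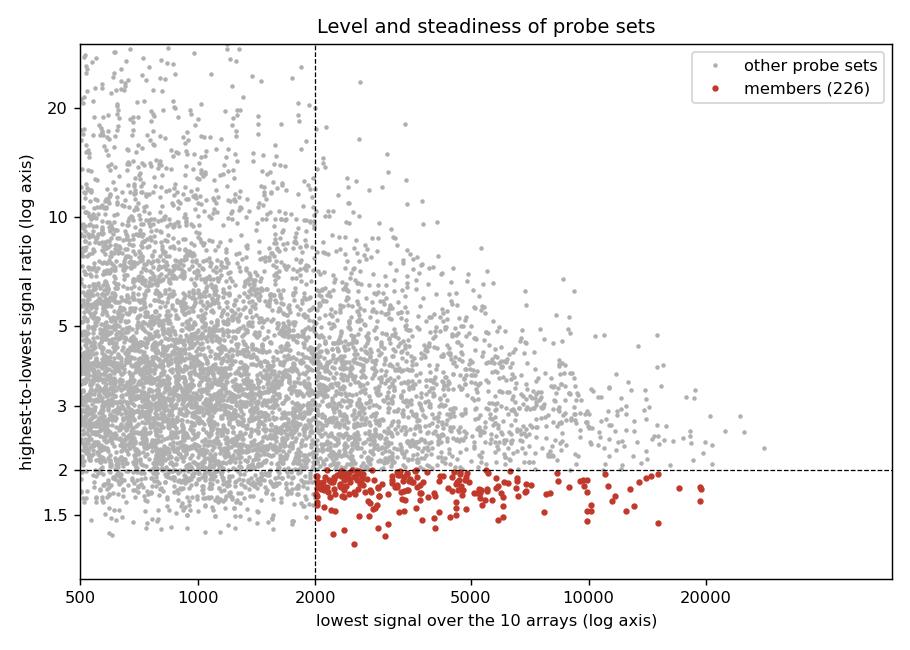
Each point is a probe set with a lowest signal of at least 500, placed by its lowest signal over the 10 arrays (x, log axis) and its highest-to-lowest ratio (y, log axis), and dashed lines mark the limits of 2000 and 2. The 226 members (red) fill the lower right corner, and most lie close to the ratio limit, with a median ratio of 1.80.

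The limits cut through a continuous distribution. The members nearest the ratio limit were LOC4332240, LOC4325717 and LOC4325116, with ratios of 1.9994, 1.9986 and 1.9983. Just outside it lay HAK5 (LOC4326945, 2.0003), ANT (LOC4330539, 2.0005) and LOC4337898 (2.0041). At the signal limit the lowest readings of members were 2008.6 (a probe set with no gene), 2012 (LOC9270146) and 2012 (LOC4351777), and those just outside were 1999.3 (LOC4327010), 1999 (LOC4344598) and 1991 (BOP1, LOC4343071, named after a ribosome biogenesis factor).

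Several named members belong to signalling. MAPK6 (LOC4340170, also MPK1 and OsSIPK), a mitogen-activated protein kinase, had the smallest ratio of any named member, 1.31. Its signals were 3011 and 3067 in leaf, 3957 and 3737 in root, 3649 and 3434 in endosperm, 3041 and 3255 in whole seedling, and 3664 and 3837 in embryo. Every embryo, endosperm and root array lay above every leaf and seedling array, and 92.6% of its squared deviations on the log2 scale lay between tissues. MEK1 (LOC4324023, a kinase of the MAP kinase kinase family) had a ratio of 1.80, reading 4399.6 and 4372 in leaf, 4813 and 5893 in root, 6529 and 4626 in endosperm, 3634 and 4777 in whole seedling, and 4491 and 4474 in embryo. Its highest array was endosperm 1 and its lowest seedling 1, and both lay away from their partner arrays. LOC9267958 (listed as MPK14), a high gene of the same group that was not a member, had a ratio of 3.28. Its highest array was endosperm 1 (8540) and its lowest endosperm 2 (2607), so that whole range lay between replicates of 1 tissue.

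PP2A2 (LOC4334494) encodes a catalytic subunit of protein phosphatase 2A, whose genes are also used as references. It read 4939 and 5186 in leaf, 3699.8 and 6037 in root, 6087 and 5776 in endosperm, 5063 and 4733 in whole seedling, and 5246 and 4902 in embryo, a ratio of 1.65. Root 1 was the lowest array and root 2 the second highest after endosperm 1. PP2A3, the other of 4 catalytic subunit genes that was high on all arrays, just missed the limit at 2.06. OsPP2C60 (LOC4342084), a phosphatase of the 2C class, ranged from 2145 on embryo 1 to 3856 on root 2 (ratio 1.80). CAM1 (LOC4324384), a calmodulin gene, read 5288 and 5872 in leaf, 7169.6 and 6486 in root, 4652 and 6395 in endosperm, 6253 and 5405 in whole seedling, and 8733 and 8557 in embryo. Embryo was above all other arrays, and endosperm 1 was lowest. The gene table lists the names of several calmodulin loci under this gene, so its signal may be shared between copies.

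**Figure D2:**
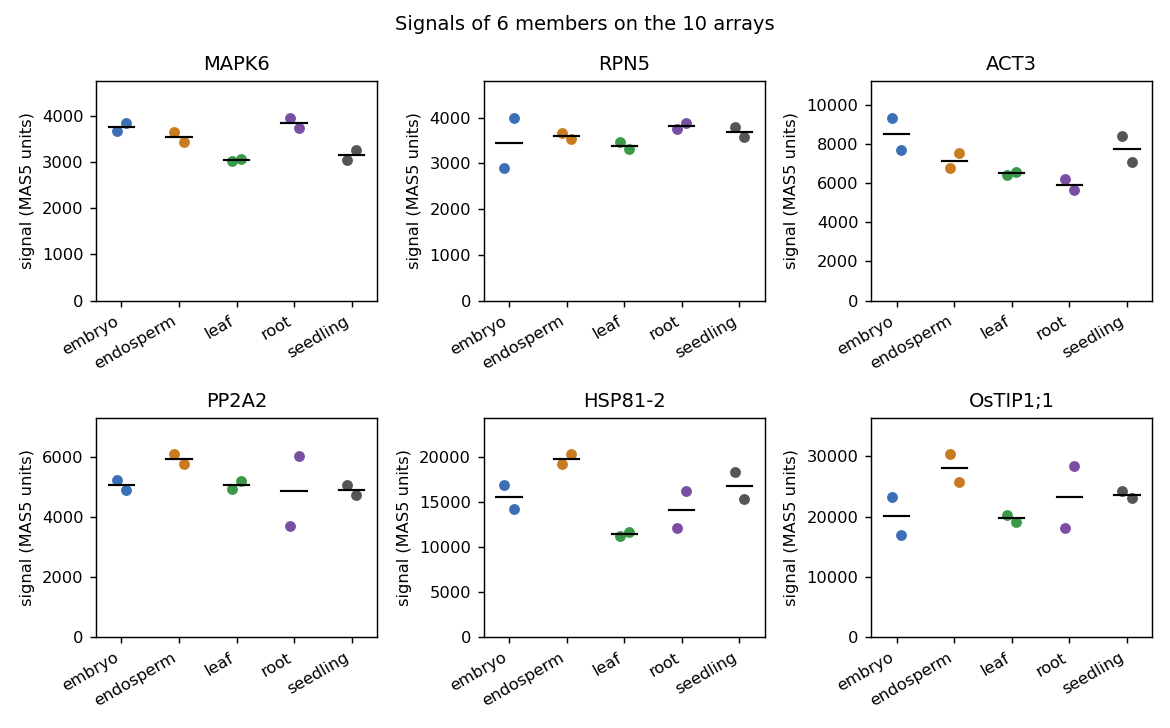
Signals (y, MAS5 units, from 0) of 6 named members in the 5 tissues (x), with a point for each array and a bar for the mean of the 2 arrays. MAPK6 and RPN5 stay between 2897 and 4000.3 on all arrays, PP2A2 and OsTIP1;1 differ most between the 2 root arrays, and HSP81-2 is highest in endosperm.

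Protein turnover and folding gave several members. RPN5 (LOC4334802), named after a subunit of the regulatory lid of the proteasome, read 3475 and 3306 in leaf, 3760.2 and 3894 in root, 3655 and 3537 in endosperm, 3805 and 3571 in whole seedling, and 2897 and 4000.3 in embryo. Both the lowest and the highest of these arrays were embryo, and the tissue means differed by a factor of only 1.13. It was the 1 member among 17 high genes of the 19 proteasome genes on the array, whose high probe sets had a median ratio of 2.79 and reached 8.03 for PBD1. HSP81-2 (LOC4347402), a cytosolic HSP90 chaperone, read 11232 and 11658 in leaf, 12144 and 16192 in root, 19206 and 20284 in endosperm, 18318 and 15343 in whole seedling, and 16908 and 14281 in embryo. Endosperm was above every other array and leaf below every other. Its close relative HSP81-3 was read by 3 high probe sets with ratios of 2.55, 3.18 and 3.25, and HSP81-1 had 2.63, none of them within the limit; near-identical copies can share probes, so these readings are uncertain. OsRAR1 (LOC4329567), known as a partner of HSP90 in disease resistance, had a ratio of 1.97, with 3689.7 and 3992 in leaf, 4059 and 6377 in root, 6308 and 5343 in endosperm, 3373 and 3235 in whole seedling, and 4133 and 4681 in embryo. Its endosperm arrays and root 2 were its 3 highest and its seedling arrays the lowest.

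CLPC1 (LOC4335702), a chaperone of the plastid Clp protease, had a ratio of 1.75. It read 11654 and 12143 in leaf, 8898 and 10864 in root, 10566 and 8907 in endosperm, 11128 and 11393 in whole seedling, and 8171 and 6927 in embryo. Both leaf arrays were above all others and embryo 2 was lowest. OsPDIL2-1 (LOC4337858), a protein disulfide isomerase, ranged from 2702 on seedling 2 to 5108 on embryo 2. Of 4 high genes of disulfide isomerases it was the 1 member. ATG8C (LOC4344857), a ubiquitin-like protein of autophagosomes, read 10726 and 11394 in leaf, 12256 and 13703 in root, 12498 and 7959 in endosperm, 11976 and 11570 in whole seedling, and 12792 and 13229.7 in embryo. Without endosperm 2 all its readings lay between 10726 and 13703. ATG8B had a ratio of 5.04, which also rested on 1 array. It read 17147 on endosperm 1 and 6475 on endosperm 2, and without endosperm 1 its readings lay between 3404 and 7660.

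Transcription, RNA and ribosome factors made up another group. TBP2 (LOC4333619) encodes a TATA-binding protein of the general transcription machinery, and ranged from 2107 on endosperm 2 to 3322 on root 2 (ratio 1.58). OsOBF1 (LOC9271102), of the bZIP transcription factors, read 10651 and 8886 in leaf, 10627 and 11769 in root, 7676 and 7837 in endosperm, 10179 and 9432 in whole seedling, and 11656 and 8469 in embryo: endosperm was lowest on both arrays. TPR3 (LOC4332285, also OsTPR1), of the TOPLESS-related corepressors, ran from 3285 on endosperm 2 to 6337 on seedling 1 (ratio 1.93). IAA5 (LOC4325515, also IAA8), of the Aux/IAA repressors of the auxin response, had the second smallest ratio among named members, 1.38, with 4047 and 4464 in leaf, 5585 and 4815 in root, 5352 and 5361 in endosperm, 4987 and 4493 in whole seedling, and 4729 and 4687 in embryo. Its highest array was root 1 and its lowest leaf 1. PES (LOC4333814), pescadillo of ribosome assembly, ran from 6235 on root 1 to 11483 on endosperm 2. DBB1 (LOC4339794, also OsUV-DDB1), of damaged-DNA binding, ran from 2359 on embryo 1 to 4423 on endosperm 2.

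AIP1 (LOC4326192, also BAT1), an RNA helicase gene, was the 1 gene with 3 member probe sets. They read 1 gene and may share probes, so they are not independent. The first had 8715 and 8903 in leaf, 6577 and 12259 in root, 7265 and 10045 in endosperm, 7285 and 7318 in whole seedling, and 10036 and 8222 in embryo (ratio 1.86). Root 1 was the lowest and root 2 the highest array of all 10, so the whole range of this probe set lay within 1 tissue. The second ran from 5802 to 10999.5 with the same extremes, and the third from 3645 to 6944 with seedling 2 lowest and endosperm 2 highest. GRXS11 (LOC4349033), a glutaredoxin of the redox enzymes, had 2 member probe sets that ordered the tissues differently. In the first, leaf read 4790.2 and 4706, above every other array, and embryo 3044 and 2646, below every other. In the second, leaf read 4182 and 3553, the lowest 2 arrays, and root 2 the highest at 6578. LOC4349251, with no further name, also had 2, with ratios of 1.68 and 1.81 and seedling 2 lowest in both.

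Metabolism, redox and transport were represented too; the signal of a probe set also depends on its probes, so levels of different genes are not compared. OsTIP1;1 (LOC4331608), a water channel of the vacuole membrane, had a mean of 22962 over the arrays. It read 20342 and 19051 in leaf, 18172 and 28402 in root, 30318 and 25755 in endosperm, 24207 and 23072 in whole seedling, and 23274 and 17032 in embryo (ratio 1.78). Endosperm 1 and root 2 were highest and embryo 2 lowest, and the pair of root arrays was the widest apart. The 3 other high aquaporin genes were read by 4 probe sets with ratios from 2.64 to 8.33. GSTF2 (LOC4326887), a glutathione S-transferase, ran from 15043 on endosperm 1 to 29364 on root 2 around a mean of 19055. APX2 (LOC4344397), the cytosolic ascorbate peroxidase that removes hydrogen peroxide, read 14069 and 12958 in leaf, 14341 and 18668 in root, 12059 and 11499 in endosperm, 16712 and 15440.2 in whole seedling, and 18813 and 14519 in embryo (ratio 1.64); endosperm was below all other arrays. The pyruvate dehydrogenase gene PDHE1-B (LOC4347531) read 5658 and 5257 in leaf, 6401 and 8839 in root, 9293 and 9534 in endosperm, 5196 and 4877 in whole seedling, and 6503 and 6340.1 in embryo (ratio 1.95), with endosperm above all others and seedling below all others. ATP-PRTase (LOC4331530), the first enzyme of histidine synthesis, and OsUGLYAH (LOC4343286), of ureide breakdown, had ratios of 1.93 and 1.82, and both were highest on endosperm 2. MTP1 (LOC4337694), a zinc transporter, ran from 2719 on leaf 2 to 4472 on endosperm 2.

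Cytoskeleton, vesicle traffic and lipid carriers were also represented. ACT3 (LOC4334702), an actin gene, read 6434 and 6562 in leaf, 6183 and 5658 in root, 6777 and 7511 in endosperm, 8404 and 7081 in whole seedling, and 9333 and 7672 in embryo, a ratio of 1.65. Both root arrays lay below all others, and embryo 1 was highest. TRS120 (LOC4336316), a subunit of the TRAPP complex that tethers vesicles, ran from 2749.6 on root 1 to 4110.3 on root 2 (ratio 1.49). The acyl-CoA-binding protein genes ACBP4 (LOC4337434, ratio 1.60) and ACBP6 (LOC4334699, ratio 1.89) have products that carry activated fatty acids. OsTDX (LOC4346999), a thioredoxin joined to a tetratricopeptide domain, ran from 2868 on root 1 to 4578 on embryo 1, and EL2 (LOC4331332), an inhibitor of cyclin-dependent kinases, from 5488 on embryo 2 to 9592 on root 2.

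**Figure D3:**
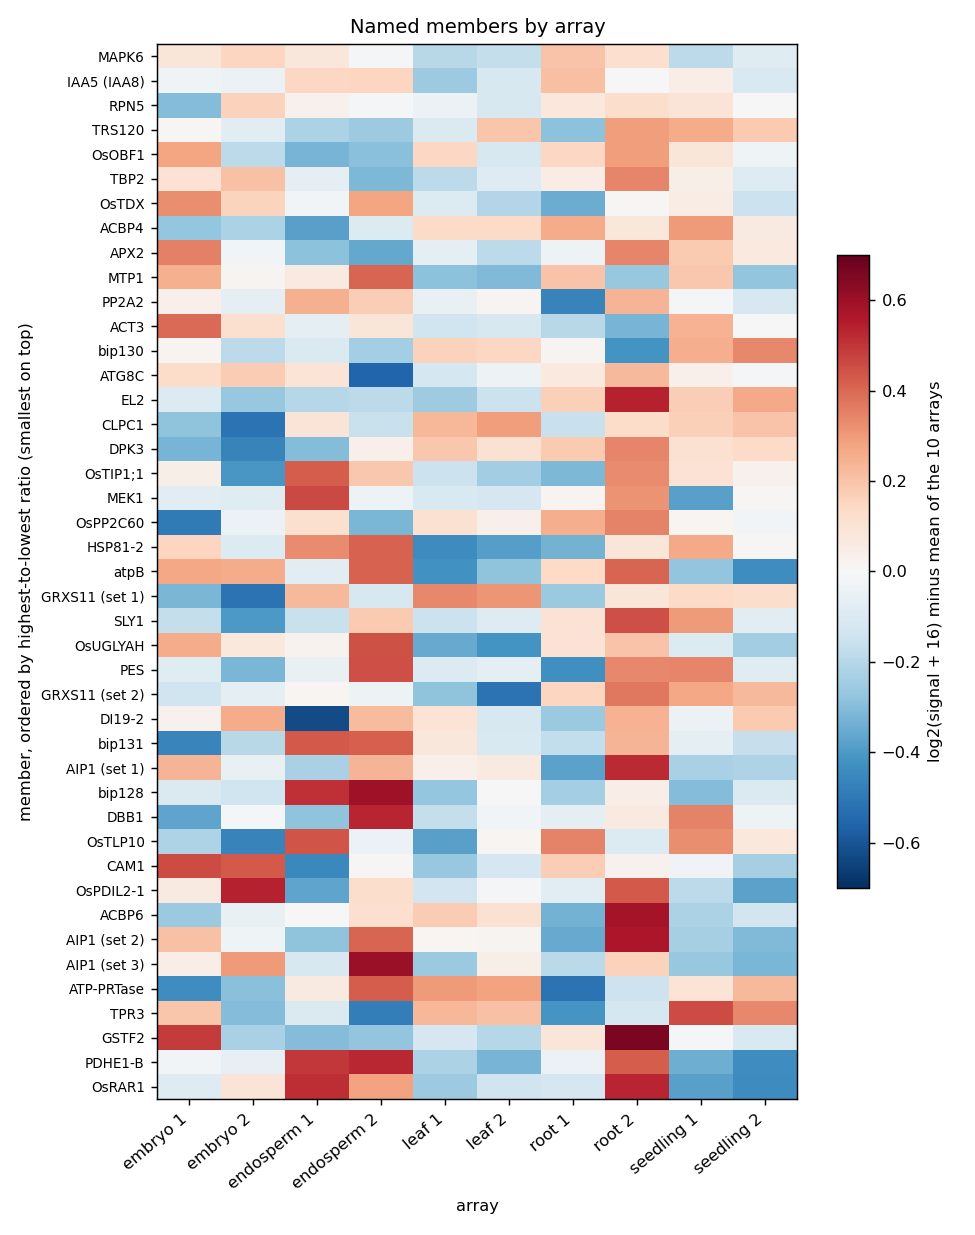
Each row is a named member probe set, ordered from the smallest highest-to-lowest ratio (top) to the largest, each column is an array, and the colour is log2(signal + 16) minus the mean over the 10 arrays. MAPK6 at the top has the smallest ratio (1.31), OsRAR1 at the bottom has a ratio of 1.97, and the root 1 and root 2 columns often differ.

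On the deposited scale membership was uncommon among high genes, in the families usually taken as references as elsewhere. Over all genes with a probe set of their own, 1620 had a probe set of at least 2000 on all arrays, and 206 of those (12.7%) were member genes. In 27 planned gene lists (reference genes, ribosome, proteasome, cytoskeleton, chaperones, redox, energy and others) 127 genes were that high and 10 of them were members (7.87%), a share not tested against that of all high genes. A further 6 lists (MAP kinases, acyl-CoA-binding proteins, autophagy proteins, aquaporins, Clp and BiP chaperones and small heat shock proteins) were made after the members had been seen, and they held 7 members among 13 high genes (53.8%). That second share follows from how those lists were picked and says nothing about their families.

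Of 18 high ribosomal protein genes 0 were members, and their 23 high probe sets had ratios from 2.27 (RPL10A) to 7.22 (RPS4). The 7 high tubulin genes, 7 initiation factor genes, 6 14-3-3 genes, 6 small GTPase genes, 4 H2B histone genes, 4 ubiquitin genes, 4 succinate dehydrogenase genes, 3 actin depolymerizing factor genes, 3 superoxide dismutase genes, 2 elongation factor 1 genes and 2 cytosolic GAPDH genes also gave 0 members. Among tubulins the nearest was TubA (LOC4343694) at 2.01. The elongation factor gene EF-1-alpha (LOC4331810) was at 2.73 and 2.86 by its 2 high probe sets, and the GAPDH genes GAPC (LOC4344564) and GAPC3 (LOC4329892) were at 2.66 and 11.07. The genes of ubiquitin-conjugating enzymes, OsUBC5a (LOC4327162) and OsUBC5b (LOC4328940), had ratios of 3.12 and 8.73, and the cyclophilin gene OsCyp3 (LOC4346316) had 3.19. The lists are small, and nothing particular to a family is drawn from these counts. They also hold only for the deposited scale. With arrays scaled to added spike-in transcripts, 202 probe sets met the rule and only 20 of them were members. Which list genes were among the 202 was not counted, so no list gene is ranked below the members in steadiness.

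ACT3 was the 1 member among 4 high actin genes. ACT1 (LOC4333919) had ratios of 2.98 and 4.56, ACT2 (LOC4349087) 5.43, and ACT7 (LOC4325068) 4.78 and 6.24. The array also carries control probe sets for some of these transcripts, which the rule leaves out. Of 2 controls for the 3′ end of Gapdh, 1 would have met both limits, with signals from 11978 to 22267 (ratio 1.86), and the other ran from 3.32 to 100.3 and met neither. The 5′ control that goes with the first ran from 425 to 12209. The 3′ controls of actin had ratios of 2.52, 2.82 and 3.94 and that of ubiquitin 2.34.

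Within the limit of 2, the members were not equally high everywhere. By tissue means 80 were highest in endosperm, 52 in embryo, 47 in root, 32 in seedling and 15 in leaf, and 55 were lowest in leaf, 52 in seedling, 50 in embryo, 35 in endosperm and 34 in root. Both arrays of endosperm lay above all other arrays for 23 members, those of embryo for 13, seedling 12, root 8 and leaf 2. These counts were not made for the other high probe sets, so nothing particular to the members is read from them. On the endosperm arrays the other high probe sets lay above their own means by a median of 0.49 and 0.47 (log2). Members did so by 0.07 on both. Tissue means of a member differed by a factor of 1.51 at the median (1.09 to 1.88), and by at most 1.5 in 109 of 226. The pairs of arrays differed by a median factor of 1.06 in leaf, 1.095 in seedling, 1.10 in embryo, 1.19 in endosperm and 1.28 in root.

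For 91 members the widest pair of arrays of 1 tissue differed by more than the tissue means did. The first measure is the largest ratio of single arrays over the 5 tissues, and the second is a ratio of averages. They are not like measures, and the count was not made for the other high probe sets. Between-tissue differences held 67.6% of the members' summed squares on the log2 scale, where 4 of 9 degrees of freedom (44.4%) lie between tissues, against 90.2% for the other high probe sets, and 42 members were under 44.4%. The limma F-test across the 5 tissues called 43 of the 226 members (19.0%) at an adjusted p under 0.05, where 73.2% of all tested probe sets were called and 77% of those with at least 2000 on all arrays. The rule used these arrays, so a low share follows from it and nothing is read from it.

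The 2 root arrays set many extremes: 58 members were highest on root 2, 53 lowest on root 1, and 12 were both. Endosperm arrays were the highest for 90 members. The other high probe sets were not counted in this way, so these extremes are not read as particular to the members. The median deviation of members from their own mean was 0.22 on root 2 and -0.17 on root 1 (log2), and between -0.09 and 0.07 on the other 8 arrays. The Gapdh 3′ to 5′ ratio, which reads RNA and labelling quality, was 2.04 on root 1 and 24.0 on root 2, 26.3 and 29.1 on the leaf arrays, 9.45 and 11.3 on those of seedling, 4.71 and 5.28 on endosperm and 1.65 and 1.82 on embryo; its part in these extremes was not tested. With endosperm 1 left out 374 probe sets met the rule. For the other 1679 high probe sets the array medians spread further, from -0.35 on seedling 2 to 0.49 on endosperm 1.

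**Figure D4:**
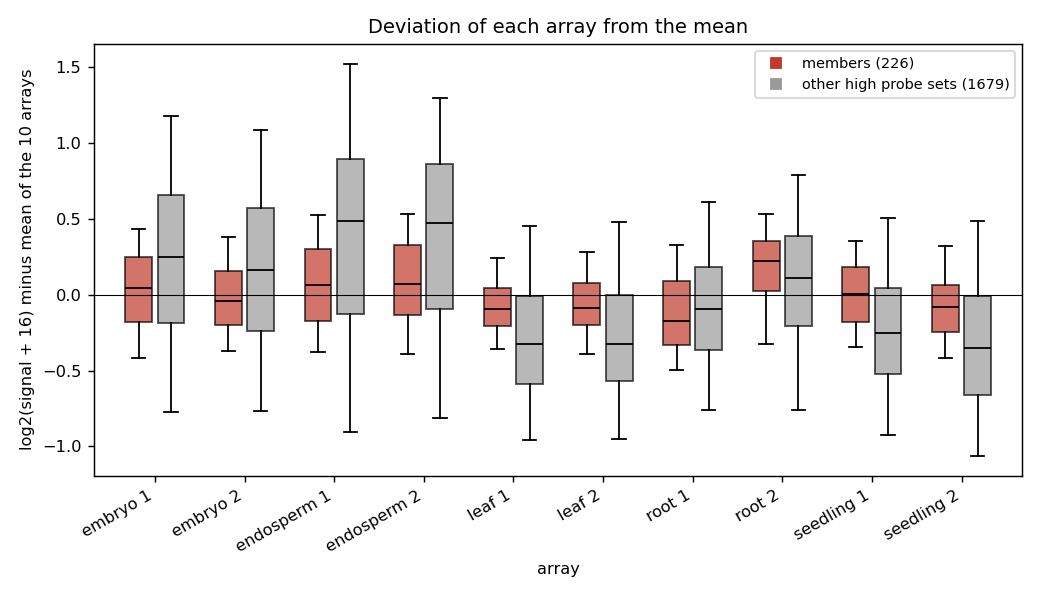
Deviation of log2(signal + 16) from each probe set's mean over the 10 arrays (y), by array (x), for the 226 members (red) and the 1679 other high probe sets (grey); boxes span the quartiles with the median as a line, and whiskers the 5th to the 95th percentile. Member medians lie close to 0 except on root 1 (-0.17) and root 2 (0.22), whereas the others are highest in endosperm and low in leaf and seedling.

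Steadiness is relative to the scale on which the arrays were made equal. The authors' scaling gave each array the same trimmed mean, and the members' ratio was taken on it. With arrays scaled to the added spike-in transcripts bioB, bioC, bioD and cre, 20 of the 226 members stayed within the rule (8.85%), and the members' median ratio was 3.10. In the deposited values the spike-ins read 1.87 and 1.71 times their geometric mean over the 10 arrays on the endosperm arrays, against 0.612 to 1.197 on the others. PP2A2 and OsTIP1;1 were the named members among the 20. With scaling to the median 85 members stayed (37.6%), among them MAPK6, RPN5, ACT3, PP2A2, HSP81-2 and AIP1, and with quantile normalization 151 (66.8%).

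Further probe sets of the member genes are readings of the same RNA on the same arrays, and those designed on the member's own target cluster may share probes with it. For 41 of the 206 member genes the array held 63 further probe sets with that 1 gene, all of which missed a limit of the rule themselves, since otherwise they would be members. Of these, 53 were bright enough to be tested and 28 differed across the 5 tissues in the limma F-test (52.8%, adjusted p under 0.05), against 73.2% of all tested probe sets. The share was 33.3% (7 of 21) for those of the member's own target cluster and 65.6% (21 of 32) for those of another cluster. Since some of the 32 carry the member's first number, neither group is known to be free of shared probes. Without embryo 2 the count was 17 (32.1%, against 64.5% of all tested), and with endosperm 1 and root 2 left out together it was 41 (77.4%, against 88.2%). Only 10 of the 63 read at least 2000 on all arrays, with ratios from 2.04 to 5.65 and a median of 2.60. The F-test called 9 of them (90%), against 77% of all probe sets with at least 2000 on all arrays. All 10 had missed the ratio limit, so a high called share follows in part from the rule and nothing is read from it. Of the 10, 8 had a ratio of at most 3 (80%), as had 738 of the 1679 other high probe sets (44.0%). By this naming 5 of the 10 were of the member's own cluster, and most of the rest shared its first number.

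Further probe sets of named member genes ranged from bright to dim. A second probe set of APX2 read a mean of 12660 with a ratio of 2.94 (limma F-test, adjusted p = 0.000212), lowest on endosperm 2 and highest on embryo 1, the same lowest and highest arrays as the member. Its other 2 were dim: 1 averaged 259 with a ratio of 12.7 (limma F-test, adjusted p = 0.000300), lowest on embryo 1, where the member was highest, and 1 averaged 78.6 with a ratio of 5.26. The other probe set of OsTIP1;1 averaged 13426 with a ratio of 2.79 (adjusted p = 0.00148 in the limma F-test), lowest on embryo 2 as the member was, and highest on seedling 1, which the member was not. RPN5 by its other probe set averaged 1199.8 with a ratio of 4.86 (limma F-test, adjusted p = 0.0671). For ACT3 the 2 others averaged 75.9 and 431 with ratios of 22.9 and 9.60 (limma F-test, adjusted p = 0.203 and 0.0307). The steady reading of that gene thus came from 1 probe set. The other probe sets of atpB, EL2 and OsPDIL2-1 averaged 1369, 1229.5 and 2313 with ratios of 9.81, 3.59 and 3.31. Their adjusted p in the limma F-test was 0.00225, 0.182 and 0.0403. ACBP4 had 2 more, which averaged 833 (ratio 4.75, limma F-test, adjusted p = 0.000295, highest on endosperm 2) and 51.5 (ratio 13.6). The other probe sets of DBB1 and DI19-2 averaged 442 and 35.1 with ratios of 2.22 and 12.9. That of DBB1 had an adjusted p of 0.220 in the limma F-test, and that of DI19-2 was too dim to be tested.

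The kinds of probe set are given as shares with no test. Sets ending in plain _at made up 75.2% of members and 74.0% of the other high probe sets, and sets that can hybridize to several genes (_s_at or _x_at) 6.19% and 6.19% of members against 8.64% and 8.81%. Sets ending in _a_at were 12.4% of members, 8.58% of the other high probe sets and 2.46% of all. A single gene was annotated for 92.9% of members, 89.2% of the other high probe sets and 39.2% of all. In gene order along the chromosomes 2 pairs of member genes were direct neighbours, LOC4332711 with LOC4332712 and LOC4337820 with LOC4337821.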

How the data were processed

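Total RNA of 5 rice tissues had been labelled with biotin and hybridized to 10 Affymetrix arrays, per the labels' protocols. The deposited values were linear signal intensities made with MAS5 (version not given in the sources used here), per the submitters' processing notes, and every deposited column had a 2% to 98% trimmed mean of 500. Of 57381 probe sets, 123 were controls and could not be members. Ratios used the deposited signals unchanged. The authors gave no log2 values: for the F-test log2(signal + 16) was computed for the 30014 probe sets that reached 100 on 2 or more arrays, and fitted with limma 3.58.1 in R 4.3.3 (eBayes with trend, 5 residual and 5.14 prior degrees of freedom) with Benjamini-Hochberg adjustment. It was tested on simulated data. Same-numbered replicates did not deviate together (correlations -0.108 to 0.0962).

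Probe sets were assigned to genes by the platform annotation, and names and gene order came from a rice gene table (ASM3414082v1), which held 206 of 206 member genes. The rule for named genes took members with a readable name (the 10 brightest, the 10 steadiest, the 3 brightest of each list, the reference genes), the 3 probe sets on each side of each limit, and further probe sets of named member genes. Other named members were added after their values were seen. Members and lists were chosen with earlier results of these data known. The gene lists were turned into name patterns after the members' names had been seen: 27 follow the planned families, 6 were added, and planned families without a matching name (HSP70, CCT, profilins, proton pumps, other histones) were not analysed here. Promoter and protein features were planned and not analysed here. Alternatives were other limits, scalings, filters, pseudocounts and models, a replicate block, and arrays left out.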

Additional observations from a re-analysis of the deposited data

How the results depend on the processing

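Each count of members depends on the limits and the scale. The 226 probe sets within the rule became 450 with a signal minimum of 1000, 93 with 4000 and 17 with a ratio of at most 1.5, 578 with the ratio taken over tissue means, 435 with quantile normalization, 141 with median scaling and 202 with spike-in scaling, and 472 with endosperm 1 and root 2 left out together (an alternative chosen after seeing the data). Leaving out 1 array in turn gave 236 to 374. Of the members, 93 were kept at a minimum of 4000, 17 at a ratio of 1.5, 85 with median scaling and 20 with spike-in scaling; leaving out an array can only loosen the rule, so all 226 were kept then. The members' median ratio, 1.80, was 2.08 with median scaling and 3.10 with spike-in scaling, and 1.74 to 1.78 without 1 array. The between-tissue share of their variance, 67.6%, was 75.8% with quantile normalization, 55.1% with median scaling, 82.0% with spike-in scaling, 89.1% without endosperm 1 and root 2, and 66.6% to 79.9% without 1 array. Of 53 further probe sets of member genes 28 were called, 15 at an adjusted p under 0.01 and 17 to 34 without 1 array. The count over all tested probe sets, 21984, stayed within 16877 and 25153 under its alternatives, and 18620 to 23151 without 1 array. With the replicate block the 2 counts were 29 and 21671, neither of which moved by over 1.5 times. The cause of these shifts was not tested. No detection calls were used, so how far a signal lies above background is unknown.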

Other observations

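Below the signal limit lay a further group with the same steadiness. Between a lowest signal of 1000 and 2000 there were 224 non-member probe sets with a ratio of at most 2. The steadiest with a readable name were OsC3H17 (LOC9271844, ratio 1.48), named as a CCCH zinc finger protein, EIP1 (LOC4327432, 1.495) and Anp32 (LOC4343864, 1.55). PP2A4 (LOC4348601) ranged from 1921 to 3101 (ratio 1.61) and PP2A1 (LOC4341364) from 1449 to 2711 (1.87), both of them genes of the protein phosphatase 2A catalytic subunit. The share of all genes at this signal and ratio was not counted, so nothing about that family is read from them. SEC10 (LOC4351857), named after a subunit of the exocyst that tethers vesicles, ranged from 1357 to 2291 (1.69), and SPT16 (LOC4335478), of the histone chaperone FACT, from 1805 to 3266 (1.81). These were named after their values were seen.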
